A study of Mus musculus with 24 samples.

Results

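The genes described are the 4 that encode the enzymes leading from glycolysis to serine and on to glycine: PHGDH, PSAT1, PSPH and SHMT2. They were taken by gene symbol from the array's probe table, and they are 4 of the 14884 named genes that could be tested. Each is read by 1 probe set: 16669389 for PHGDH, 17086193 for PSAT1, 17057946 for PSPH and 16752834 for SHMT2. The probes are for human genes, although the labels give the mouse as the organism, so the values describe the tumour cells and any mouse RNA that bound. Genomic positions were not used here.

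The arrays measured RNA from subcutaneous plasmacytomas grown in CB17-SCID mice, an immunodeficient strain, from MM.1S, a line of human multiple myeloma cells. Every group therefore shares 1 cell line and the same host. The 8 groups of 3 arrays were the triple combination of filanesib, pomalidomide and dexamethasone, the pairs pomalidomide plus dexamethasone, filanesib plus pomalidomide and filanesib plus dexamethasone, the single drugs pomalidomide, dexamethasone and filanesib, and Control. Filanesib, also called ARRY-520, inhibits the kinesin spindle protein needed for mitosis and was given at 10 mg/kg. Pomalidomide, an immunomodulatory drug that redirects the cereblon ubiquitin ligase, was given at 8 mg/kg. Dexamethasone, a synthetic glucocorticoid, was given at 0.5 mg/kg. Each drug was injected intraperitoneally over 2 days. The Control tumours are labelled untreated, while the treatment protocol says that control mice received the vehicle, PBS. The series asks how filanesib adds to an immunomodulatory drug with dexamethasone, and because all 8 combinations were profiled, each drug can be read with and without the other 2.

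The serine pathway branches off glycolysis at 3-phosphoglycerate. PHGDH oxidises that intermediate, PSAT1 adds the amino group, and PSPH removes the phosphate to give serine. SHMT2, in mitochondria, then splits serine into glycine and a one-carbon unit carried on folate, which feeds the synthesis of nucleotides. In many tumour types these genes are known to be driven by the transcription factors ATF4 and MYC.

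Some facts of the whole series bear on the values below. They are log2 RMA levels, on which a difference of 1 is a doubling, and arrays correlated at 0.951 to 0.990 over all probe sets. The 3 arrays of pomalidomide alone varied most, with a residual SD of 0.194 to 0.289 against 0.127 to 0.180 in the other 21 arrays. The average effect of pomalidomide on the 4 genes, and on the other genes whose call changed, is therefore also given without them. The labels do not say that each array came from its own mouse, so the p-values measure the spread between these arrays. Of 9 plasma cell markers 7 were named by the probe table. SDC1, XBP1, IRF4, CD38, MZB1 and SLAMF7 lay at or above percentile 98.1 of all genes, and POU2AF1 at percentile 52.3. In these bulk tumours, fewer cells of a type and less RNA per cell cannot be told apart.

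With pomalidomide, the average effect lay below 0 for all 4 genes, and 3 of the 4 were called lower. This average effect is the mean of 4 differences, 1 for each background: alone, beside filanesib, beside dexamethasone and beside both. PHGDH, PSAT1 and SHMT2 passed the test, and PSPH did not. The test was limma's moderated test on all 14884 genes with Benjamini-Hochberg adjustment and a threshold of 0.05. Over all genes 2.65% were called lower and 2.21% higher. An unadjusted p under 0.05 was held by 4 of the 4 genes, against 17.3% of all genes. The median difference of the 4 genes was -0.30 on the log2 scale, against -0.01 over all genes.

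PHGDH, the first and committed enzyme, lay between 5.28 and 5.85 with a median of 5.66 on the 12 arrays with pomalidomide. On the 12 arrays without it, PHGDH lay between 5.61 and 6.41 with a median of 6.03. All 12 arrays with pomalidomide were below the median of those without it, and 3 were below the lowest of them. The average difference was -0.37 ± 0.06 (SE; 0.77-fold; limma adjusted p = 0.000483).

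The arrays of PHGDH are given next by background. Tumours given pomalidomide alone read 5.28, 5.65 and 5.61, against 6.04, 6.03 and 6.21 in Control, so the groups did not overlap. Beside filanesib the levels were 5.85, 5.66 and 5.78 with pomalidomide, against 6.19, 5.97 and 6.41 without it, again with no overlap. Beside dexamethasone they were 5.57, 5.73 and 5.71 with pomalidomide, against 5.84, 5.80 and 5.61 with dexamethasone alone. Here the groups overlapped, and the third dexamethasone array was as low as the arrays with pomalidomide. Beside both other drugs PHGDH read 5.69, 5.66 and 5.54 in the triple combination, against 6.02, 6.12 and 5.96 with filanesib plus dexamethasone, with no overlap. These 4 differences were -0.58, -0.43, -0.08 and -0.40, each with an SE of 0.12.

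PSAT1, the aminotransferase of the second step, fell furthest of the 4 on average, with a difference of -0.49 ± 0.08 (SE; 0.71-fold; limma adjusted p = 0.00105). Its 12 arrays with pomalidomide lay between 6.80 and 7.75 with a median of 7.49, against 7.57 to 8.25 with a median of 7.86 on the 12 arrays without it. Of the 12 arrays with pomalidomide, 7 lay below every array without it. Pomalidomide alone gave 7.39, 7.63 and 6.80, against 7.94, 7.80 and 7.77 in Control. The third pomalidomide array was the lowest of all 24, and the groups did not overlap.

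Beside filanesib, PSAT1 read 7.44, 7.46 and 7.75 with pomalidomide, against 8.13, 7.85 and 8.25 without it. Beside dexamethasone it read 7.06, 7.18 and 7.60 with pomalidomide, against 7.57, 7.84 and 7.75 without it. Beside both drugs the levels were 7.53, 7.71 and 7.62 with pomalidomide, against 8.05, 7.87 and 8.19 without it. The groups were apart beside filanesib and beside both drugs, and overlapped by 1 array beside dexamethasone. The PSAT1 differences were the most alike of the 4 genes across backgrounds: -0.56 alone, -0.53 beside filanesib, -0.44 beside dexamethasone and -0.42 beside both, each with an SE of 0.17.

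PSPH, the phosphatase of the last step to serine, had an average difference of -0.18 ± 0.07 (SE; 95% interval -0.31 to -0.04; limma adjusted p = 0.133), which did not pass. The 12 arrays with pomalidomide lay between 5.38 and 5.93 with a median of 5.76, against 5.75 to 6.17 with a median of 5.90 on the 12 arrays without it. Of the arrays with pomalidomide 10 were below the median of those without it. Pomalidomide alone gave 5.61, 5.89 and 5.76, against 6.03, 6.04 and 5.82 in Control, and the groups overlapped.

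Beside filanesib, PSPH read 5.93, 5.76 and 5.92 with pomalidomide, against 5.91, 5.94 and 5.77 without it. Beside dexamethasone it read 5.61, 5.74 and 5.50 with pomalidomide, against 5.85, 5.88 and 5.87 without it. The triple combination gave 5.89, 5.87 and 5.38, against 6.17, 5.75 and 5.97 with filanesib plus dexamethasone. Only the pair of groups beside dexamethasone was apart for PSPH, and the third array of the triple combination was the lowest of the 24. The differences were -0.21 alone, -0.25 beside dexamethasone and -0.25 beside both, with an SE of 0.13, and beside filanesib the difference lay between -0.27 and 0.27 (95% interval).

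SHMT2, the mitochondrial serine hydroxymethyltransferase, fell by 0.24 ± 0.06 on the log2 scale in the average effect (SE; 0.85-fold; limma adjusted p = 0.0222). Its 12 arrays with pomalidomide lay between 5.40 and 5.84 with a median of 5.62, against 5.45 to 6.07 with a median of 5.90 on the 12 arrays without it. All 12 arrays with pomalidomide were below the median of those without it, and 2 were below the lowest. Pomalidomide alone gave 5.40, 5.82 and 5.44, against 6.02, 5.80 and 6.02 in Control. The second array of each group made them overlap.

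Beside filanesib, SHMT2 read 5.69, 5.84 and 5.65 with pomalidomide, against 5.89, 5.85 and 6.07 without it. Beside dexamethasone it read 5.57, 5.81 and 5.57 with pomalidomide, against 5.79, 5.74 and 5.45 without it. In the triple combination it read 5.60, 5.62 and 5.62, against 5.91, 5.98 and 5.97 with filanesib plus dexamethasone. The groups were apart beside filanesib, narrowly, and beside both drugs, where each group was tight, and overlapped beside dexamethasone. The SHMT2 differences were -0.39 alone, -0.21 beside filanesib, -0.01 beside dexamethasone and -0.34 beside both, each with an SE of 0.12.

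**Figure D1:**
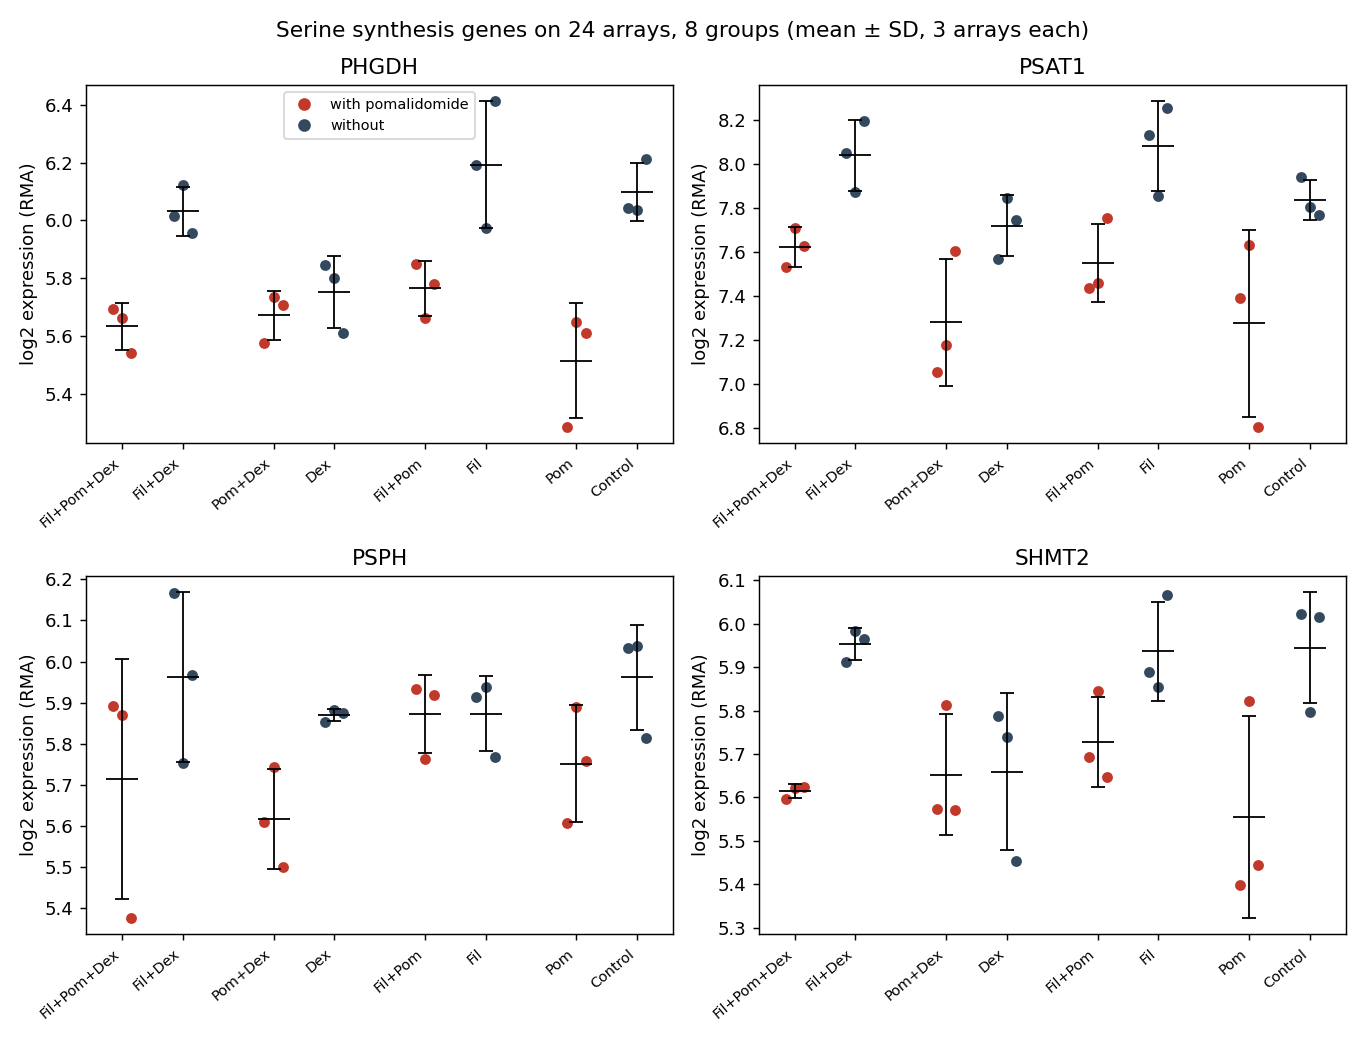
Log2 expression (RMA; vertical axis) of PHGDH, PSAT1, PSPH and SHMT2 on each of 24 arrays (points), by group, with the mean ± SD of 3 arrays as bars; each group with pomalidomide (red) stands left of the same background without it (dark). Pomalidomide groups lie lower without overlap for PHGDH in every pair but the one beside dexamethasone, and the arrays of pomalidomide alone are the most scattered for PSAT1.

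The SHMT2 call depended on the scattered arrays of pomalidomide alone, and those of PHGDH and PSAT1 did not. Averaged over the 3 backgrounds with another drug, a comparison added after seeing the data that leaves out both pomalidomide alone and Control, PHGDH still differed by -0.30 (limma adjusted p = 0.0118) and PSAT1 by -0.46 (limma adjusted p = 0.00358). SHMT2 no longer passed there, at -0.19 (limma adjusted p = 0.113), and PSPH stood at -0.17 (limma adjusted p = 0.275). With only pomalidomide replicates 1 and 3 left out, SHMT2 stood at -0.17 (limma adjusted p = 0.122).

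Counted by separation of 3 arrays from 3, the genes that lay lower with pomalidomide were 2 of 4 alone, against 9.06% of all genes, and 3 of 4 beside filanesib, against 9.83%. Beside dexamethasone the count was 1 of 4, against 4.35%, and beside both drugs it was 3 of 4, against 7.36%. None of the 4 genes lay higher without overlap in any of the 4 backgrounds, against 6.57%, 9.39%, 6.86% and 6.17% of all genes. Single pairs of groups were tested where 1 was Control or where they differed by 1 drug. Other pairs, such as filanesib against pomalidomide, were not tested. Among the pairs tested, PHGDH in pomalidomide alone against Control was the only pass of limma's test for any of the 4 genes (adjusted p = 0.0151). In that comparison 1.47% of all genes fell. This call was lost without Control replicate 1 or 3 or pomalidomide replicate 1, and with pomalidomide replicate 2 left out 3 of the 4 genes passed.

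In the other comparisons with Control limma called 0 of the 4 genes. Of all genes it called 0.255% with the triple combination, 0.161% with pomalidomide plus dexamethasone, 0.141% with filanesib plus pomalidomide, 0.00672% with dexamethasone alone, and 0% with filanesib alone or with dexamethasone. In the same order of comparisons, 2, 4, 1, 2, 0 and 0 of the 4 genes had an unadjusted p under 0.05, against 10.6%, 8.3%, 7.6%, 3.9%, 3.94% and 6.03% of all genes. For pomalidomide limma called 0 of 4 beside filanesib (0.249% of all genes), beside dexamethasone (0.0269%) and beside both (0.0269%), with 2, 1 and 3 of the 4 at an unadjusted p under 0.05, against 10.7%, 5.54% and 6.33% of all genes. For filanesib it called 0 of 4 beside pomalidomide (0.356%) and beside dexamethasone (0.0202%), with 1 and 2 of the 4 at an unadjusted p under 0.05, against 13.3% and 5.73% of all genes. The comparisons with Control share its 3 arrays.

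Whether the effect of pomalidomide on these genes changed with the background was tested directly, by interaction terms. Over all 14884 genes limma called 0, or 0% of genes, in the interactions of pomalidomide with dexamethasone, with filanesib and with both. At an unadjusted p under 0.05 there were 821, 996 and 927 genes, and 1, 0 and 1 of the 4. For PHGDH the effect of pomalidomide was 0.27 ± 0.12 less negative with dexamethasone than without it (SE; 95% interval 0.02 to 0.51; unadjusted p = 0.0355, limma adjusted p = 0.891). For SHMT2 the three-way term was -0.51 ± 0.24 (SE; 95% interval -1.01 to -0.02; limma adjusted p = 0.791). For PHGDH it was -0.47 ± 0.24 (SE; 95% interval -0.97 to 0.02), and for PSAT1 it was -0.01 ± 0.34 (SE).

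Filanesib, in its average effect, moved none of the 4 genes past limma's threshold, while 1.25% of all genes rose and 0.148% fell. Of the 4 genes 2, PSAT1 and PHGDH, had an unadjusted p under 0.05, against 11.7% of all genes. PSAT1 was nearest, with a difference of 0.29 ± 0.08 (SE; 95% interval 0.12 to 0.47; limma adjusted p = 0.0978). PHGDH differed by 0.15 ± 0.06 (SE; 95% interval 0.02 to 0.27), SHMT2 by 0.11 ± 0.06 (SE; 95% interval -0.02 to 0.23) and PSPH by 0.05 ± 0.07 (SE; 95% interval -0.08 to 0.19). All 4 differences lay above 0, with a median of 0.13 against -0.00188 over all genes. For PSAT1 the call depended on single arrays: without pomalidomide replicate 2, or without replicate 3 of pomalidomide plus dexamethasone, PSAT1 passed (limma adjusted p = 0.0273 and 0.0487).

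PSAT1 was above its counterpart in group mean in every background with filanesib. The arrays with filanesib lay between 7.44 and 8.25 with a median of 7.80, against 6.80 to 7.94 with a median of 7.62 on the 12 arrays without it. The differences were 0.24 alone, 0.32 beside dexamethasone, 0.27 beside pomalidomide and 0.34 in the triple combination against pomalidomide plus dexamethasone, each with an SE of 0.17. Beside dexamethasone, PHGDH, PSAT1 and SHMT2 lay higher with filanesib without overlap, 3 of 4 genes against 7.06% of all genes. Beside pomalidomide PHGDH alone did, 1 of 4 against 8.28%. Filanesib alone and the triple combination set apart 0 of 4 upward, against 5.62% and 7.22% of all genes.

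The triple combination against pomalidomide plus dexamethasone, the comparison closest to the question of the series, gave no call among the 4 genes, and 0.00672% of all genes rose. The lowest adjusted p of limma was 0.703, for PSAT1, which differed by 0.34 (95% interval -0.01 to 0.69). PHGDH differed by -0.04 (95% interval -0.29 to 0.21), PSPH by 0.10 (95% interval -0.18 to 0.37) and SHMT2 by -0.04 (95% interval -0.29 to 0.21). None of the 4 had an unadjusted p under 0.05, against 7.29% of all genes.

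Dexamethasone moved none of the 4 genes past limma's threshold in its average effect, in which 0.0134% of all genes fell and none rose. None of the 4 had an unadjusted p under 0.05, against 7.68% of all genes. PHGDH had the lowest difference, -0.12 ± 0.06 (SE; 95% interval -0.24 to 0.00; limma adjusted p = 0.656). PSAT1 differed by -0.02 ± 0.08, with a 95% interval of -0.20 to 0.16. Dexamethasone alone against Control gave -0.35 ± 0.12 for PHGDH (SE; unadjusted p = 0.00805) and -0.29 ± 0.12 for SHMT2 (SE; unadjusted p = 0.0263), neither of which passed after adjustment in limma. PHGDH averaged 5.75 ± 0.12 with dexamethasone alone and 6.10 ± 0.10 in Control (SD, n = 3 arrays each).

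**Figure D2:**
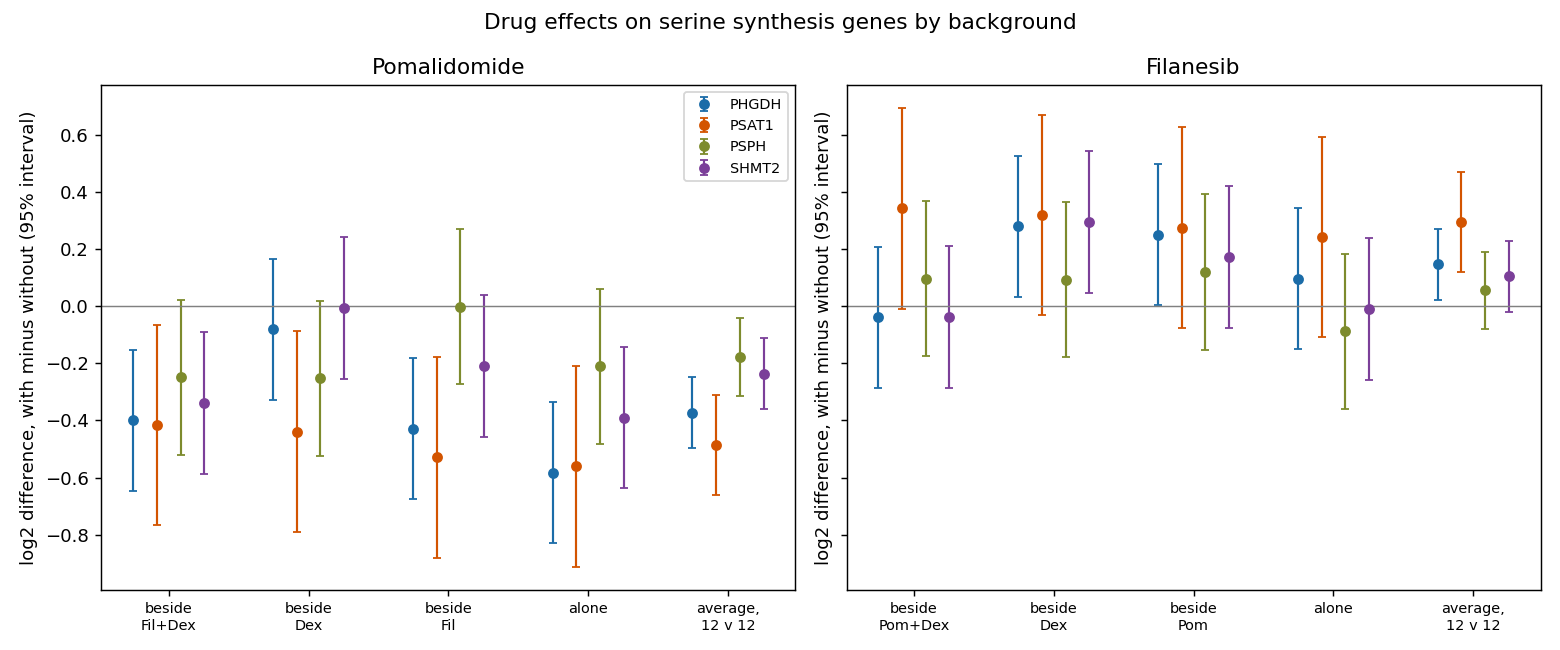
Log2 difference with minus without pomalidomide (left) and filanesib (right) for the 4 genes in each background and on average over 12 arrays against 12 (horizontal axis); points are limma estimates and bars 95% intervals. The pomalidomide averages of PHGDH, PSAT1 and SHMT2 lie at -0.37, -0.49 and -0.24, while the filanesib average of PSAT1, 0.29, did not pass after adjustment.

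Ordered by group mean, PHGDH was highest with filanesib, 6.19 ± 0.22, and lowest with pomalidomide alone, 5.51 ± 0.20 (SD, n = 3 arrays each). Filanesib plus dexamethasone, at 6.03 ± 0.08, stood in the third place and filanesib plus pomalidomide, at 5.76 ± 0.09, next below it. The 6 other pairs of neighbours in the PHGDH order overlapped, and this 1 did not. SHMT2 broke at the same place: filanesib, 5.94 ± 0.11, and filanesib plus pomalidomide, 5.73 ± 0.10, were its only neighbours that did not overlap. They were only narrowly apart, with the lowest filanesib array at 5.85 and the highest of filanesib plus pomalidomide at 5.84. The share of all genes with such a break in an order by mean was not counted, so the breaks are a description. Above the break both genes had the same 3 groups, Control, filanesib and filanesib plus dexamethasone.

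PSAT1 ran without a break over 8 groups, with filanesib at 8.08 ± 0.20 and filanesib plus dexamethasone at 8.04 ± 0.16 on top. Pomalidomide plus dexamethasone, 7.28 ± 0.29, and pomalidomide alone, 7.28 ± 0.42, were at the bottom. All 4 groups with pomalidomide stood below the 4 without it in the PSAT1 order. How large a share of all genes had this order was not counted. PSPH had the narrowest span, 5.96 ± 0.21 with filanesib plus dexamethasone to 5.62 ± 0.12 with pomalidomide plus dexamethasone, and all 7 pairs of its neighbours overlapped.

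PHGDH and SHMT2 followed each other most closely over the 24 arrays, with a Pearson r of 0.85 and a Spearman rho of 0.84. Without the 2 arrays farthest from the median of PHGDH the r was 0.80. The points share their treatment groups and the array normalisation. With the group means taken out, the r of PHGDH and SHMT2 was 0.57. The other 5 pairs had an r of 0.43 to 0.70 over all arrays but 0.02 to 0.23 within groups. Within groups on the 21 arrays outside pomalidomide alone, the r of PHGDH and SHMT2 was 0.53. That of the other 5 pairs ran from -0.18 to 0.22. Over all 24 arrays PSPH had the weakest relation to the other 3 genes, with an r of 0.43 to 0.47. Within groups this did not hold, as PHGDH had an r of 0.10 with PSPH and 0.08 with PSAT1.

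The 3 genes most like each of the 4 over the 24 arrays were found by Pearson r. For PHGDH they were ASF1B, a histone chaperone (r = 0.90), CDCA5, the sororin of sister chromatid cohesion (r = 0.88), and IMPA2, an inositol monophosphatase (r = 0.87). For PSAT1 they were EXO1, an exonuclease of DNA repair (r = 0.88), MCM10, a replication factor (r = 0.86), and NET1, a guanine nucleotide exchange factor (r = 0.85). For SHMT2 they were CDCA5 (r = 0.89), TKT, the transketolase of the pentose phosphate pathway (r = 0.86), and E2F2, a cell cycle transcription factor (r = 0.86). PHGDH came 5th among the genes like SHMT2, and SHMT2 came 6th among those like PHGDH. PSPH had no such close partner: CENPX, a kinetochore and DNA repair protein (r = 0.72), SPI1, the transcription factor PU.1 (r = 0.72), and WWOX, an oxidoreductase (r = 0.70), were nearest. With the group means taken out, the r ran from 0.51 for MCM10 with PSAT1 to 0.90 for ASF1B with PHGDH. These genes were picked for their likeness to the 4, so neither this r nor their own changes add support.

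**Figure D3:**
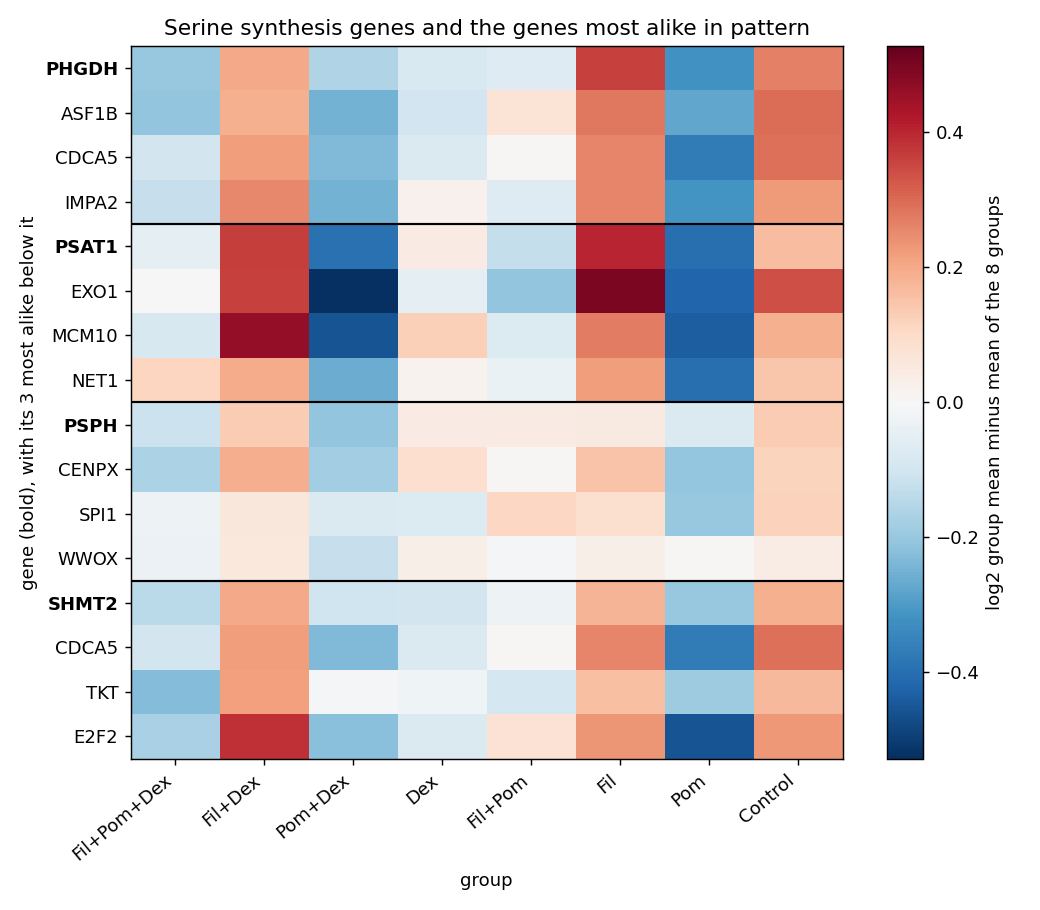
Group means of log2 level, each gene set to its mean over the 8 groups (colour), for the 4 serine synthesis genes (bold) and the 3 genes most alike to each, with groups on the horizontal axis. The rows of PHGDH, PSAT1 and SHMT2 and their nearest genes are lowest in pomalidomide alone or pomalidomide plus dexamethasone, apart from TKT, which is lowest in the triple combination.

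Around the 4 genes, the neighbouring steps were described by lists, on the average effect of pomalidomide. The share called over all genes is the same 2.65% lower and 2.21% higher, and 17.3% of all genes had an unadjusted p under 0.05. At that p stood 3 of 15 one-carbon enzymes, 2 of 3 transporters, 4 of 6 genes of glycolysis, 4 of 10 users of serine, 2 of 9 genes of other amino acid synthesis, 4 of 13 of the amino acid response and 6 of 17 aminoacyl-tRNA synthetases. Of 24 glycine and folate one-carbon enzymes 15 were named by the probe table, and 2 fell, with a median of -0.07 against -0.01 over all genes. TYMS, the thymidylate synthase that uses the one-carbon unit, fell by 0.49 ± 0.08 (SE; limma adjusted p = 0.0005). SHMT1, the cytosolic counterpart of SHMT2, fell by 0.32 ± 0.08 (SE; limma adjusted p = 0.019). The SHMT1 difference was -0.65 in pomalidomide alone, and -0.25, -0.15 and -0.22 beside filanesib, dexamethasone and both. Over the 3 backgrounds with another drug, the comparison added after seeing the data, SHMT1 stood at -0.21 and did not pass (limma adjusted p = 0.174), while TYMS, at -0.42, did (limma adjusted p = 0.0104). The other 13 did not pass, among them GLDC, AMT, GCSH and DLD of the glycine cleavage system at -0.09, -0.07, -0.03 and -0.01. Of the 15 differences 2 lay above 0, MTR at 0.15 and MTHFD2L at 0.11.

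Of 15 serine and glycine transporters only 3 were named by the probe table, with a median of -0.20. SFXN1, which carries serine into mitochondria, fell by 0.31 ± 0.06 (SE; limma adjusted p = 0.00487), and passed over the 3 backgrounds with another drug too, at -0.31 (limma adjusted p = 0.0217). SFXN1 was dim, with a mean of 4.40 with pomalidomide and 4.71 without it. The alternative that left out genes with a mean under 5 therefore did not cover it. Of 6 named genes of glycolysis from glyceraldehyde 3-phosphate, LDHA, the lactate dehydrogenase A subunit, fell by 0.29 ± 0.07 (SE; limma adjusted p = 0.0201), and the list's median was -0.19. The LDHA difference was -0.60 in pomalidomide alone, and -0.24, -0.16 and -0.14 beside filanesib, dexamethasone and both, and over these last 3 backgrounds LDHA did not pass, at -0.18 (limma adjusted p = 0.174). The differences for the 2 genes upstream of the branch, GAPDH and PGK1, were -0.09 and 0.00, neither of which passed. PGAM1, PGAM4 and LDHB of the same list stood lower, at -0.43, -0.21 and -0.16. They did not pass either (limma adjusted p = 0.126, 0.255 and 0.0886). Enzymes and carriers that use serine showed 0 of 10 past limma's threshold, with a median of -0.04. PTDSS1, which makes phosphatidylserine, stood at -0.22 (limma adjusted p = 0.0725) and SERINC1, a serine incorporator, at 0.21 (limma adjusted p = 0.114). PTDSS1 passed with array weights, at -0.25 (limma adjusted p = 0.0113), and in 3 of 24 single-array omissions, and SERINC1 passed in 1 of them.

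Synthesis of other amino acids had 1 of 9 named genes lower, PYCR1, the last enzyme of proline synthesis, by 0.26 ± 0.08 (SE; limma adjusted p = 0.0494), a call lost in 17 of 24 single-array omissions and in 8 other settings. Over the 3 backgrounds with another drug PYCR1 stood at -0.16 (limma adjusted p = 0.351). Its list median was -0.07. Of 17 aminoacyl-tRNA synthetases 1 fell, MARS1, for methionine, by 0.20 ± 0.05 (SE; limma adjusted p = 0.0248), and 14 of the 17 differences lay below 0, with a median of -0.09. The MARS1 call was lost with each array centred on its median, without pomalidomide replicates 1 and 3, in 1 of 24 single-array omissions, and over the 3 backgrounds with another drug, at -0.17 (limma adjusted p = 0.102).

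The amino acid response list had calls in both directions. Of its 13 named genes 2 rose and 1 fell, and its median was 0.08. EIF2AK4, the kinase GCN2 that senses uncharged tRNA, rose by 0.43 ± 0.08 (SE; limma adjusted p = 0.00256), with 0.80 beside both other drugs and 0.08 alone. It also passed over the 3 backgrounds with another drug, at 0.54 (limma adjusted p = 0.00358). ATF5, a related transcription factor, rose by 0.21 ± 0.06 (SE; limma adjusted p = 0.0492). TRIB3, a pseudokinase and a target of ATF4, fell by 0.24 ± 0.06 (SE; limma adjusted p = 0.0301). The ATF5 call was lost in 18 of 24 single-array omissions and that of TRIB3 in 8, and each was lost in 4 other settings. These included the 3 backgrounds with another drug, with ATF5 at 0.21 (limma adjusted p = 0.117) and TRIB3 at -0.25 (limma adjusted p = 0.0736).

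**Figure D4:**
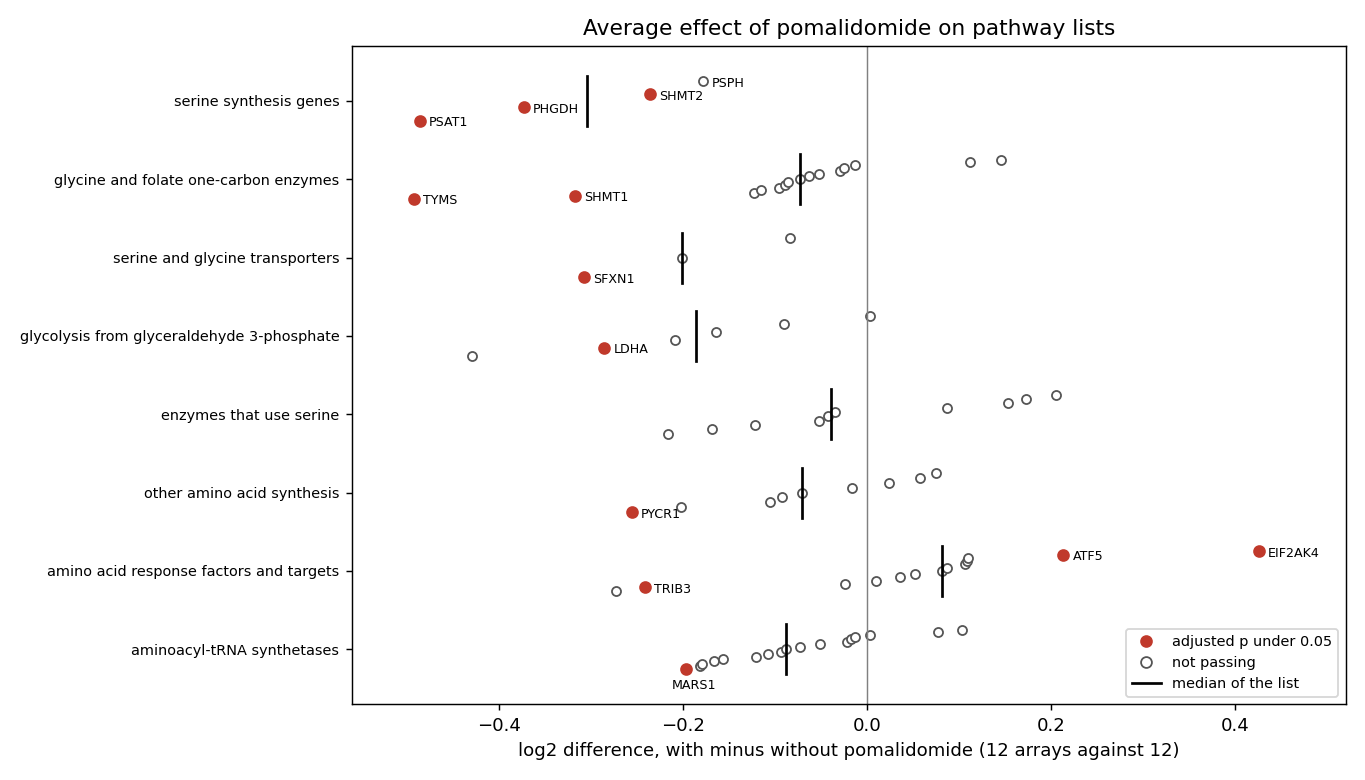
Average log2 difference with minus without pomalidomide over 12 arrays against 12 (horizontal axis) for each named gene (points) of the serine synthesis genes and 7 neighbouring lists, with the list median as a bar; filled points passed limma's adjusted p of 0.05. The serine synthesis genes have a median of -0.30, and the amino acid response list has a median of 0.08.

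ATF4 and MYC, named for their known action on these genes, were followed in every group at the RNA level. ATF4 averaged 9.16 ± 0.11 with pomalidomide and 9.07 ± 0.10 without it (SD, n = 12 arrays each), a difference of 0.09 (95% interval -0.02 to 0.20; limma adjusted p = 0.447). Its group means ran from 9.00 with filanesib plus dexamethasone to 9.24 with pomalidomide plus dexamethasone, and Control stood at 9.13. MYC averaged 10.34 ± 0.20 with pomalidomide and 10.47 ± 0.16 without it (SD, n = 12 arrays each), a difference of -0.13 (95% interval -0.26 to -0.00; limma adjusted p = 0.288). MYC fell in pomalidomide alone, at 10.13 ± 0.20, against 10.64 ± 0.16 in Control (SD, n = 3 arrays each; limma adjusted p = 0.0404). Whether this call depended on single arrays of pomalidomide alone was not tested. Beside the other drugs the differences of MYC with pomalidomide were 0.08, -0.10 and 0.00.

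In none of the 7 pathway lists did a named gene pass limma's threshold in the average effect of filanesib or of dexamethasone. At an unadjusted p under 0.05 a list held 0 to 5 such genes with filanesib, the most among the one-carbon enzymes, and 0 to 2 with dexamethasone, against 11.7% and 7.68% of all genes. The one-carbon count with filanesib was 5 of 15. With filanesib the aminoacyl-tRNA synthetases had 15 of 17 differences above 0 and a median of 0.11, and the one-carbon enzymes had 10 of 15 above 0 and a median of 0.07. The closest was SHMT1, at 0.29 (limma adjusted p = 0.0698).

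Markers of other cells were read beside these results. Of 6 macrophage markers 4 were named: CD68 rose with pomalidomide by 0.99 ± 0.09 (SE; limma adjusted p = 4.31e-07), while CD163, CSF1R and CD14 lay at percentiles 15.5 to 42.9 of all genes and did not pass. CD68 lay at percentile 98.6, with a mean of 8.99 on the arrays without pomalidomide. CD163, CSF1R and CD14 differed by 0.04, -0.01 and -0.01. The mean level of the 4 ran from 4.91 to 5.24 on arrays with pomalidomide and from 4.74 to 5.05 without it. The 3 named of 5 endothelial markers and the 2 named of 6 fibroblast markers lay at percentiles 3.28 to 35.7 and did not pass. The probes are for human genes and the host is a mouse, so these markers cannot show how many host cells the tumours held. Among plasma cell markers IRF4, a survival factor of myeloma cells, fell by 0.54 with pomalidomide (limma adjusted p = 0.00557) and CD38, a surface enzyme, rose by 0.18 (limma adjusted p = 0.0304). The CD38 call was lost in 8 of 24 single-array omissions and over the 3 backgrounds with another drug, at 0.19 (limma adjusted p = 0.075), where IRF4 passed at -0.47 (limma adjusted p = 0.0442). Their part in the results on the serine synthesis genes was not tested.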

How the data were processed

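Per the submitters' processing notes, the authors ran RMA in Affymetrix Expression Console, and deposited log2 levels for each probe set; the sources used here state no versions. RMA gives all arrays nearly the same distribution, which hides a shift common to most genes. No detection calls were used. Precision is limited by the number of arrays, with a median SE over genes of 0.14 between groups. Of 53617 probe sets, 16098 had 1 gene symbol, 0 had several and 37519 had none and were left out; for 779 genes with several probe sets the one with the highest mean was kept. limma 3.58.1 in R 4.3.3 fitted a mean per group to 24 arrays (16 residual degrees of freedom), with eBayes moderation, two-sided tests and Benjamini-Hochberg adjustment over 14884 genes. The method was tested on simulated data. Genes and lists were chosen with earlier results of these data known. Named genes were the 4, the 3 most alike to each, list genes past the threshold in the average effect of pomalidomide (or the 2 with the smallest p), ATF4 and MYC. GLDC, AMT, GCSH, DLD, MTR, MTHFD2L, GAPDH, PGK1, PGAM1, PGAM4, LDHB and the cell markers were added after their values were seen. Alternatives covered normalisation, centring, weights, filters, left-out arrays, a block for the replicate number and another variance prior. A planned motif search in promoters was not run, and no sequence is shown.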

Additional observations from a re-analysis of the deposited data

How the results depend on the processing

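PHGDH and PSAT1 stayed past the threshold in the average effect of pomalidomide under every alternative run, leaving out each array in turn included. SHMT2 did not pass without Pomalidomide replicates 1 and 3 (-0.17) or over the 3 backgrounds with another drug (-0.19). Of the 4 genes, the number called in Pomalidomide against Control was 0 with array weights, without Pomalidomide replicates 1 and 3, and in the fit to the 2 groups alone; with array weights it was 1 in the triple combination against Control. Leaving out each array in turn, the number called was 0 to 3 in Pomalidomide against Control and 0 to 1 in the average effect of filanesib, where PSAT1 ran from 0.24 to 0.34; its average effect of dexamethasone ran from -0.079 to 0.024 and changed sign without 5 of the arrays. In Pomalidomide against Control it was 0 without Control replicate 1, Control replicate 3 or Pomalidomide replicate 1, and 3 without Pomalidomide replicate 2; the cause was not tested. With the replicate number as a block, PHGDH had an adjusted p of 0.00104, PSAT1 of 0.00194 and SHMT2 of 0.0274 in limma, and no call of the 4 genes changed. No pairing of the arrays by number was seen, which does not exclude one. Deviations of same-numbered arrays correlated at -0.316 to 0.305, with a mean of -0.021 against 0.010 for other numbers. Only 2 of 24 arrays were closest to their own number. Over the 3 backgrounds with another drug, SHMT1, LDHA, PYCR1, TRIB3, ATF5, MARS1 and CD38 no longer passed; that fit has fewer arrays.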
